A study of Mus musculus with 9 samples.

Results

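The genes described here load peptides onto MHC class I molecules, the surface proteins that show fragments of a cell's own proteins to CD8 T cells. Proteasomes cut proteins into peptides, and 3 inducible catalytic subunits, encoded by Psmb8, Psmb9 and Psmb10, can take the place of the constitutive subunits encoded by Psmb5, Psmb6 and Psmb7. The transporter formed by TAP1 and TAP2 carries peptides into the endoplasmic reticulum, where ERAP1 trims them, tapasin (Tapbp) and its relative TAPBPR (Tapbpl) favour the binding of well-fitting peptides, and beta-2 microglobulin (B2m) forms the light chain of the finished molecule. Interferons raise the expression of many of these genes in a wide range of cells, and lymphocytes express them without added interferon.

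Members were all probe sets whose RefSeq accession or description in the array annotation named 1 of 9 genes: B2m, Tap1, Tap2, Tapbp, Tapbpl, Psmb8, Psmb9, Psmb10 and Erap1. The rule found 16 probe sets for 8 of the 9 genes, of 45037 probe sets that were not controls and 9918 genes with a symbol. No probe set was named Tap1 by this rule, and Tap1 is not analysed here under its own name. Probe set 1416016_at, described as Psmb9, carries functional terms of a peptide transporter, and whether it reads Tap1 was not tested. All 16 probe sets passed the filter on dim signals (3 or more of the 9 arrays with a log2 signal over 4), which left 40928 probe sets in the tests.

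The study profiled 3 lines of cultured mouse cells on Affymetrix expression arrays, with 3 samples and 3 arrays per line. EBFko cells lack EBF, an early transcription factor of B cell development, and are labelled lymphoid specified. Pax5ko cells lack Pax5, which fixes B cell identity, and are labelled B lineage specified, while RAG2ko cells lack a subunit of the V(D)J recombinase and are labelled B lineage committed. EBFko and Pax5ko cells were kept in 10 ng/ml human Flt3 ligand and 10 ng/ml mouse IL-7 and RAG2ko cells in 10 ng/ml mouse IL-7 alone, so that genotype and medium cannot be told apart in the 2 comparisons with RAG2ko. The labels used here name no strain and do not say whether replicates were separate cultures, and p-values therefore measure the spread between these samples, which may be technical.

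Signals are in arbitrary units that differ between probe sets, so a log2 level is compared between arrays for 1 probe set and never between genes. Each array held a median signal of 73.2 to 97.4, and arrays of a line correlated at 0.884 to 0.923 over probe sets, against 0.818 to 0.891 between lines. The targeted genes gave no check of the genotypes, because the labels do not place the probes relative to the deletions: the brightest probe set of Ebf1 stood at 10.67 to 11.1 on the EBFko arrays, against 9.89 to 10.06 in Pax5ko and 11.76 to 12.44 in RAG2ko. Pax5 stood at 2.64 to 5.62 on the Pax5ko arrays, against 3.06 to 6.32 in EBFko and 6.77 to 7.33 in RAG2ko, and Rag2 at 5.96, 5.6 and 9.1 on the RAG2ko arrays, against 8.83 to 10.16 in EBFko and 7.16 to 7.86 in Pax5ko, so that RAG2ko replicate 3 stood above the other RAG2ko arrays. Of 12 B lineage marker genes, 6 to 7 exceeded a signal of 64 (log2 of 6, taken here as dim) on the EBFko arrays, 9 on each Pax5ko array and 12 on each RAG2ko array. Of 13 T and NK cell markers, 2 to 6 exceeded it on any array, and of 13 macrophage and dendritic markers, 4 to 9. Single markers of these lists still differed between the lines: in the order EBFko, Pax5ko, RAG2ko, Klrd1, an NK cell receptor, had mean log2 signals of 10.52, 1.94 and 6.56, and Mrc1, a mannose receptor of macrophages, had 6.18, 12.55 and 6.51. Of the macrophage and dendritic markers, Adgre1 (10.13, 6.1 and 5.78), Itgax (8.74, 4.45 and 5.61) and Ly86 (8.53, 3.12 and 4.3) were highest in EBFko. Others of the list went other ways: Lyz2 (6.24, 5.28 and 7.94) was highest in RAG2ko and Csf1r (7.05, 7.63 and 6.93) in Pax5ko. Of the T and NK cell markers, unlike Klrd1, Zap70 (8.71, 7.79 and 9.94) and the dim Cd3e (3.34, 3.52 and 4.77) were highest in RAG2ko. The part of NK or myeloid cells in the results below was not tested. RAG2ko replicate 3 also stood apart in Rag1, at 10.75 against 8.03 and 7.41 on the other RAG2ko arrays, and in stromal signal. Its mean log2 signal over 24 stromal cell markers was 9.02, where the other RAG2ko arrays had 5.81 and 6.51, against 8.25 to 9.75 in EBFko and 8.14 to 9.99 in Pax5ko. In such bulk samples, fewer cells of a type and less RNA per cell cannot be told apart.

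Of the 8 measured peptide loading genes, Tap2 and Tapbpl were lower in RAG2ko than in both other lines by their brighter probe sets. A probe set described as Psmb9 was higher in Pax5ko than in EBFko. No other member probe set passed the test. Each line enters 2 of the 3 comparisons, so these share samples. Between Pax5ko and EBFko, 1 of the 16 member probe sets rose and 0 fell, where 2.64% of all probe sets rose and 2.58% fell. From Pax5ko to RAG2ko, 0 member probe sets rose and 2 fell, beside 4.98% and 4.94% of all probe sets. From EBFko to RAG2ko, 0 rose and 2 fell, beside 6.41% and 6.23% of all probe sets. Calls were made with limma on all 40928 probe sets at a Benjamini-Hochberg adjusted p under 0.05, and at an unadjusted p under 0.05 the member counts were 6, 4 and 2 in the same order, where 18.1%, 25.5% and 27.1% of all probe sets passed. The median difference over the 16 was -0.04, -0.22 and 0.1 on the log2 scale, beside -0.01, 0.07 and 0.06 over all probe sets.

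The values of the lines did not overlap for 7 of 16 member probe sets between Pax5ko and EBFko (29.0% of all probe sets), for 6 between RAG2ko and Pax5ko (32.6% of all) and for 3 between RAG2ko and EBFko (33.4% of all). The order of the 3 line means was not shared by the members. EBFko had the highest mean for 7 probe sets, Pax5ko for 6 and RAG2ko for 3. The 6 probe sets of Tap2, Tapbp and Tapbpl all had their lowest mean in RAG2ko, though only those of Tap2 and Tapbpl with the brighter signal passed the test. Tapbpl 1424961_at stayed below a signal of 64 on all 9 arrays, and Tapbp 1450378_at differed from Pax5ko by only -0.05. The low mean of Tap2 1453936_at rested on 1 array. In the authors' deposited ratios 1453936_at and 1424961_at were not lower in RAG2ko, so the shared order is not read as a common fall.

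**Figure D1:**
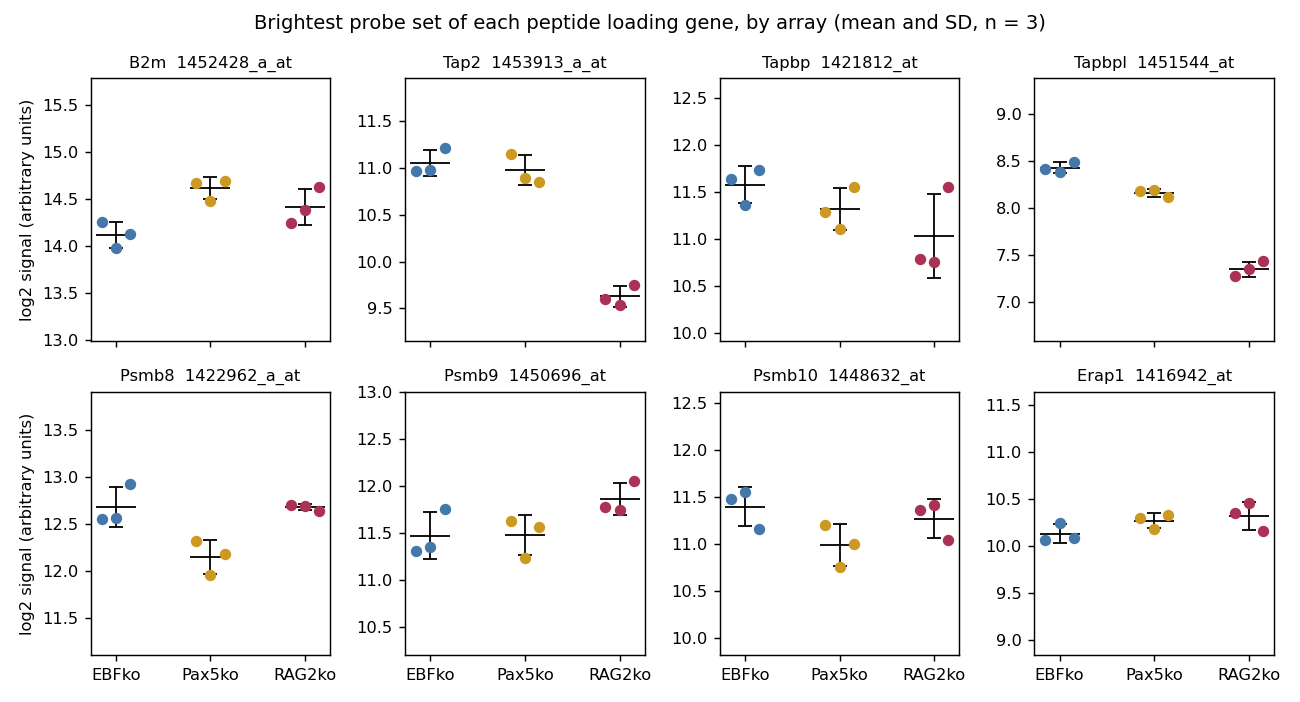
Log2 signal (arbitrary units) of the brightest probe set of each of 8 peptide loading genes on 9 arrays, 3 per line. Points are arrays, bars the mean and SD (n = 3), and each panel spans the same height around its own mean. Tap2 (9.54 to 9.75) and Tapbpl (7.28 to 7.44) sit lower on the RAG2ko arrays than on all others.

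Tap2 encodes the subunit of the peptide transporter that pairs with TAP1. Its brighter probe set (1453913_a_at) gave log2 signals of 10.96, 10.98 and 11.21 on the EBFko arrays, 11.15, 10.89 and 10.85 on the Pax5ko arrays and 9.6, 9.54 and 9.75 on the RAG2ko arrays. The 3 RAG2ko arrays lay below all 6 others, while EBFko and Pax5ko overlapped. Tap2 fell by 1.34 from Pax5ko to RAG2ko (SE 0.16, a 2.52-fold difference with a 95% interval of 1.95 to 3.26, adjusted p = 0.0027 by limma, lower in 3 of 3 arrays). It fell by 1.42 from EBFko to RAG2ko (SE 0.16, 2.68-fold, interval 2.07 to 3.46, adjusted p = 0.00157 by limma). EBFko and Pax5ko, the neighbours in this order, differed by -0.08 with an interval of -0.45 to 0.29 (adjusted p = 0.853 by limma), which leaves room for a difference of that size either way. Both falls passed with each array left out in turn, at -1.24 to -1.4 against Pax5ko and -1.34 to -1.48 against EBFko. The authors' deposited table of ratios, which has no replicates, gave log2 differences of -1.68 and -1.77.

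Stromal markers moved with this comparison in part. On RAG2ko replicate 3, where their mean log2 signal was 9.02, Tap2 stood at 9.75, the highest of the RAG2ko arrays. On EBFko replicate 2 and Pax5ko replicate 2, where the stromal means were lower (8.25 and 8.14), Tap2 stood at 10.98 and 10.89. The summed signal of the 24 stromal markers ranged from 15186 to 55207 in EBFko, 17431 to 61979 in Pax5ko and 2068 to 29784 in RAG2ko, and 12 to 22 of the 24 exceeded a signal of 64 on RAG2ko arrays. Without RAG2ko replicate 3 the fall was -1.4 against Pax5ko and -1.48 against EBFko. The stromal markers had a median difference of -2.36 from Pax5ko to RAG2ko and -2.49 from EBFko to RAG2ko. The part of stromal RNA in the Tap2 signal was not tested.

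The second Tap2 probe set (1453936_at) was dimmer than the first, with deposited signals of 25 to 115, and fell below 64 on 1 array. Its log2 values were 6.44, 6.54 and 6.63 in EBFko, 6.69, 6.78 and 6.43 in Pax5ko and 6.22, 6.64 and 4.59 in RAG2ko. RAG2ko replicate 3 alone set its low RAG2ko mean, and the differences of -0.82 and -0.72 did not pass (adjusted p = 0.343 and 0.395 by limma). Without that array they were -0.2 and -0.11, and the authors' deposited table gave 0.09 and 0.1. The second probe set thus did not show the fall of the brighter one. In the reference gene order of mouse chromosome 17, Psmb9, Tap1, Psmb8 and Tap2 follow each other with no other gene between them, inside the class II region of the MHC, and Psmb8, next to Tap2, passed in no comparison.

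Tapbp encodes tapasin, the bridge between the transporter and the class I heavy chain. Its brighter probe set (1421812_at) read 11.64, 11.36 and 11.74 in EBFko, 11.29, 11.11 and 11.55 in Pax5ko and 10.79, 10.76 and 11.55 in RAG2ko. The lines overlapped, because RAG2ko replicate 3 lay within the range of the other lines while replicates 1 and 2 lay below them. The differences of RAG2ko were -0.28 from Pax5ko (interval -0.89 to 0.32) and -0.55 from EBFko (interval -1.15 to 0.06), and neither passed (adjusted p = 0.545 and 0.226 by limma). Without RAG2ko replicate 3, the array with the high stromal signal, the difference from EBFko was -0.8 and passed (adjusted p = 0.0448 by limma). It passed under only this 1 of 21 alternatives with a test. The part of stromal RNA in the Tapbp signal was not tested. The other probe set (1450378_at) read 9.64, 9.13 and 9.87 in EBFko, 8.73, 8.44 and 9.28 in Pax5ko and 8.26, 8.85 and 9.2 in RAG2ko. It also ran lowest in RAG2ko, by 0.77 below EBFko on the log2 scale, and passed in no comparison (lowest adjusted p = 0.193 by limma).

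Tapbpl encodes TAPBPR, a peptide editor related to tapasin that works outside the loading complex. On the arrays its description was a hypothetical protein, and it was named through its RefSeq accession. Probe set 1451544_at gave 8.42, 8.38 and 8.49 in EBFko, 8.18, 8.19 and 8.12 in Pax5ko and 7.28, 7.35 and 7.44 in RAG2ko. The 3 lines did not overlap each other, and the spread within each line was small (SD 0.06, 0.04 and 0.08). Tapbpl fell by 0.81 from Pax5ko to RAG2ko (SE 0.13, 1.75-fold, interval 1.42 to 2.16, adjusted p = 0.00925 by limma) and by 1.07 from EBFko to RAG2ko (SE 0.13, 2.11-fold, interval 1.71 to 2.6, adjusted p = 0.00227 by limma). The difference of -0.27 between Pax5ko and EBFko did not pass (interval -0.57 to 0.03, adjusted p = 0.341 by limma). Both falls passed with each array left out in turn (-0.77 to -0.85 and -1.04 to -1.12), and -0.85 and -1.12 were the values without RAG2ko replicate 3. The second Tapbpl probe set (1424961_at) stayed below a signal of 64 on all 9 arrays and carried no usable level. When both probe sets were averaged, the falls were -0.68 and -0.99 and no longer passed (adjusted p = 0.54 and 0.344 by limma).

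**Figure D2:**
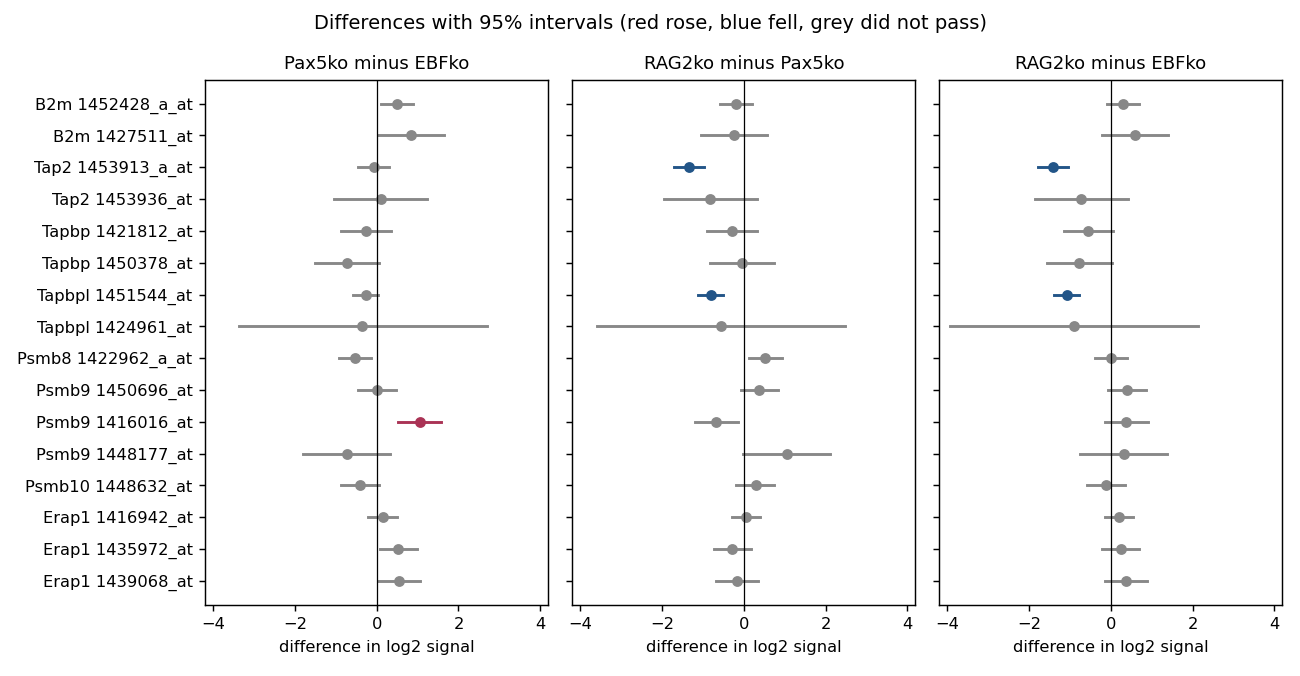
Difference in log2 signal for the 16 member probe sets in the 3 comparisons, with 95% intervals from the limma fit. Red marks a probe set that rose, blue one that fell and grey one that did not pass; the blue points are Tap2 1453913_a_at (-1.34 and -1.42) and Tapbpl 1451544_at (-0.81 and -1.07), and the red point is 1416016_at (1.05).

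B2m encodes the light chain shared by all class I molecules. Its main probe set (1452428_a_at) read 14.26, 13.98 and 14.13 in EBFko, 14.67, 14.48 and 14.69 in Pax5ko and 14.25, 14.39 and 14.63 in RAG2ko, with deposited signals of 15664 to 26405. Pax5ko lay above EBFko on every array, and RAG2ko overlapped both. The difference of Pax5ko from EBFko was 0.49 (SE 0.17, interval 0.1 to 0.88) and did not pass (adjusted p = 0.165 by limma), nor did 0.3 for RAG2ko minus EBFko (adjusted p = 0.302) or -0.19 for RAG2ko minus Pax5ko (adjusted p = 0.518). The dimmer probe set (1427511_at) kept the same order of line means, from 7.28 ± 0.45 (SD, n = 3) in EBFko to 8.12 ± 0.38 in Pax5ko and 7.87 ± 0.49 in RAG2ko. Its largest difference, 0.84 for Pax5ko minus EBFko, did not pass either (adjusted p = 0.255 by limma).

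The stretch before the B2m start is shown because B2m serves every class I molecule and its promoter holds an interferon response motif. It spans chr2:122147437-122147686 (GRCm38.p6, RefSeq, plus strand, 250 bases, 5′ to 3′), with motif matches in capitals.
B2m upstream: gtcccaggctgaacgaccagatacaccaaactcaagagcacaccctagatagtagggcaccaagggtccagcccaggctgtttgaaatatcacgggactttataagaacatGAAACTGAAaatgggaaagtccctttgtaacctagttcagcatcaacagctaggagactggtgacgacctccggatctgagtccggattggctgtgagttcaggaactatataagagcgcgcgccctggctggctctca
The capitals are GAAACTGAA, a match to GAAANNGAA, the core of interferon response elements, 130 bases before the start. RefSeq promoters were at hand for 7 of the 9 members, and not for Tap2 and Tapbpl. In the 250 bases before the start, searched on both strands, 2 of the 7 held GAAANNGAA (B2m and Erap1), 1 held TTCNNNGAA (Psmb8), the STAT motif, and 0 held CCCNNGGGA, the EBF1 motif. Of 27018 mouse promoters of the same length, 7.16%, 7.18% and 5.53% held them. A match is a description of letters and not of binding.

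Psmb8 encodes the inducible subunit that replaces PSMB5 in the immunoproteasome. It had 1 probe set (1422962_a_at), which read 12.55, 12.56 and 12.92 in EBFko, 12.32, 11.95 and 12.18 in Pax5ko and 12.7, 12.69 and 12.64 in RAG2ko. Pax5ko lay below both other lines on every array, and EBFko and RAG2ko overlapped. The differences were -0.53 for Pax5ko minus EBFko (SE 0.17, interval -0.93 to -0.13, adjusted p = 0.145 by limma) and 0.53 for RAG2ko minus Pax5ko (SE 0.17, interval 0.13 to 0.93, adjusted p = 0.101 by limma). Neither passed, and EBFko and RAG2ko differed by 0 (interval -0.4 to 0.4). The difference of RAG2ko from Pax5ko passed under 4 of 20 alternatives with a test (adjusted p from 0.00879 to 0.231 over the 20 by limma), and the difference of Pax5ko from EBFko under 1 of 20 (0.0125 to 0.585).

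Psmb9, which replaces PSMB6, was described for 3 probe sets that disagreed. Probe set 1450696_at read 11.31, 11.35 and 11.76 in EBFko, 11.63, 11.24 and 11.57 in Pax5ko and 11.78, 11.75 and 12.06 in RAG2ko. RAG2ko lay above Pax5ko on every array and overlapped EBFko, and the differences of 0.38 and 0.39 did not pass (adjusted p = 0.274 and 0.256 by limma). Probe set 1416016_at read 9.61, 9.69 and 10.17 in EBFko, 11.1, 10.74 and 10.79 in Pax5ko and 10.03, 10.08 and 10.5 in RAG2ko. It rose by 1.05 from EBFko to Pax5ko (SE 0.22, 2.07-fold, interval 1.45 to 2.97, adjusted p = 0.0404 by limma), and Pax5ko lay above all arrays of the other lines. This rise was lost in 12 of 19 alternatives with a test, among them the fits without EBFko replicate 1 (0.95, adjusted p = 0.138) or 2 (0.98), without Pax5ko replicate 1 (0.94), 2 (1.12) or 3 (1.1), and without RAG2ko replicate 1 or 2 (1.05 in both). Though described as Psmb9, this probe set carries functional terms of an ABC peptide transporter and none of a proteasome, so its identity is uncertain. Whether it reads Tap1, the neighbour of Psmb9, was not tested, and its rise is not read as a rise of Psmb9. Probe set 1448177_at carries terms of both kinds, read 6.59, 6.54 and 7.44 in EBFko, 6.61, 5.19 and 6.53 in Pax5ko and 7.13, 6.74 and 7.61 in RAG2ko, and passed in no comparison.

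Psmb10, which replaces PSMB7, read 11.48, 11.55 and 11.16 in EBFko, 11.2, 10.76 and 11 in Pax5ko and 11.36, 11.42 and 11.04 in RAG2ko (1448632_at). The lines overlapped in each comparison, and the line means of 11.4, 10.99 and 11.27 followed the order of Psmb8, with Pax5ko lowest. None of the differences passed, the largest being -0.41 for Pax5ko minus EBFko (interval -0.87 to 0.05, adjusted p = 0.342 by limma).

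Psmb9 and Tap1 start back to back, and the bases between their starts are shown because they serve as the upstream region of both genes. They span chr17:34187331-34187555 (GRCm38.p6, RefSeq, 225 bases), and the Psmb8 stretch spans chr17:34197945-34198194 (plus strand, 250 bases), both written 5′ to 3′ on the plus strand with motif matches in capitals.
Psmb9 to Tap1: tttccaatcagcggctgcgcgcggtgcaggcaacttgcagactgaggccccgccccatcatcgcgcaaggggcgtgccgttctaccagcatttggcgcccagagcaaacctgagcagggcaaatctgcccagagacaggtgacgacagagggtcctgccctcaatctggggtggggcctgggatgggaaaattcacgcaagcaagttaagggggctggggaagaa
Psmb8 upstream: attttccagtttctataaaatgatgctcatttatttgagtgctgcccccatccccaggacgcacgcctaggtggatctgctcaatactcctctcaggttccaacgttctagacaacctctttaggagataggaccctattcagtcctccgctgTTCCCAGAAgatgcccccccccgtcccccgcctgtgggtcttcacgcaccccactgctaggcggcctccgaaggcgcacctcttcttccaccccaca
The region between Psmb9 and Tap1 held none of the 3 motifs searched, and the Psmb8 stretch held TTCCCAGAA, a match to TTCNNNGAA, 88 bases before the start.

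Whether inducible subunits moved against their constitutive partners was asked on each array. Psmb8 minus Psmb5 gave log2 differences of -0.07, -0.01 and 0.17 in EBFko, -0.27, -0.38 and -0.38 in Pax5ko and 0.29, 0.19 and 0.36 in RAG2ko. The 3 lines did not overlap, with Pax5ko lowest and RAG2ko highest. With 3 arrays against 3, the exact two-sided permutation test cannot go below p = 0.1, and each of the 3 comparisons reached that value (differences of -0.37, 0.63 and 0.25, adjusted p = 0.3 over 9 comparisons). Psmb9 minus Psmb6 (from 1450696_at) was -1.03 ± 0.28 (SD, n = 3) in EBFko, -0.91 ± 0.19 in Pax5ko and -0.64 ± 0.35 in RAG2ko. Psmb10 minus Psmb7 was -2.37 ± 0.31, -2.57 ± 0.16 and -2.49 ± 0.26 in the same order. The lines overlapped for both pairs, and their exact permutation p was 0.3 to 0.7 before adjustment. The sign of such a difference has no meaning across probe sets, and only its change between lines was compared. Psmb5, Psmb6 and Psmb7 themselves passed in none of the 3 comparisons, with differences from -0.26 for Psmb5 in RAG2ko minus EBFko to 0.21 for Psmb7 in RAG2ko minus Pax5ko.

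**Figure D3:**
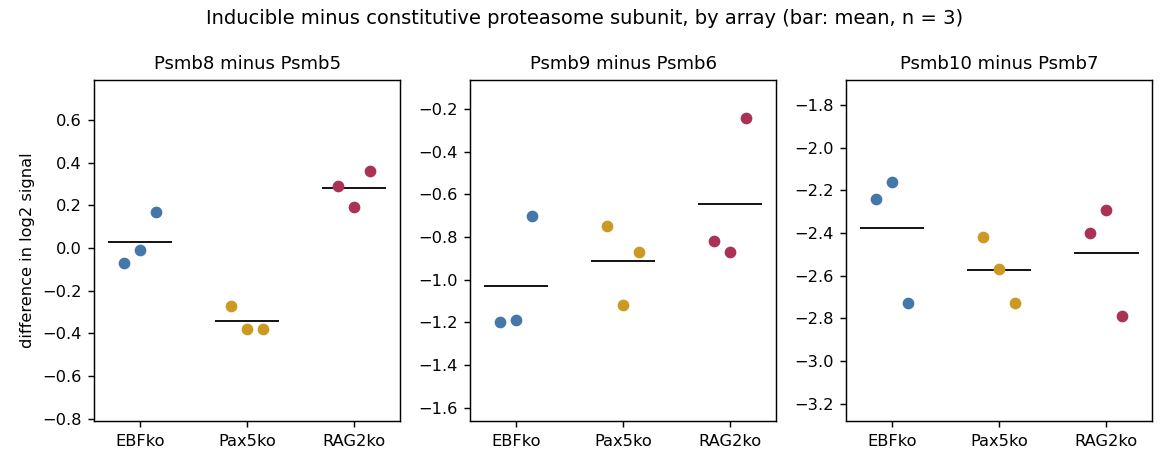
Log2 signal of an inducible proteasome subunit minus that of its constitutive partner on each of 9 arrays, with bars at the line mean (n = 3) and the same height span in each panel. For Psmb8 minus Psmb5 the lines separate (Pax5ko -0.38 to -0.27, EBFko -0.07 to 0.17, RAG2ko 0.19 to 0.36), and for the other pairs they overlap.

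Erap1 encodes the aminopeptidase that trims peptides in the endoplasmic reticulum. Its probe set 1416942_at stayed within 10.06 to 10.46 on all 9 arrays, with 10.06, 10.25 and 10.08 in EBFko, 10.3, 10.18 and 10.33 in Pax5ko and 10.35, 10.46 and 10.16 in RAG2ko. The lines overlapped, and no difference exceeded 0.19 on the log2 scale. Probe sets 1435972_at and 1439068_at were higher in Pax5ko than in EBFko on every array, by 0.53 (interval 0.07 to 0.98, adjusted p = 0.203 by limma) and 0.54 (interval 0.03 to 1.05, adjusted p = 0.247), and did not pass. All 3 probe sets had their lowest mean in EBFko. The stretch before the Erap1 start is shown for its interferon response motif, and spans chr13:74639603-74639852 (GRCm38.p6, RefSeq, plus strand, 250 bases, 5′ to 3′).
Erap1 upstream: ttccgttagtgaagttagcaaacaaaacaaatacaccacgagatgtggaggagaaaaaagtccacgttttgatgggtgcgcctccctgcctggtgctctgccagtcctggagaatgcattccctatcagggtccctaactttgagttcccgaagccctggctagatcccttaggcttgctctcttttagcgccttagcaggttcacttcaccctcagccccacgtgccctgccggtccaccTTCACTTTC
The capitals are TTCACTTTC, the reverse complement form of GAAANNGAA, which ends at the base before the start.

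Genes with the most similar profile over the 9 arrays were sought for each member, by the root mean square difference of centred log2 signals among 6446 genes with a mean log2 signal above 6. For Tap2 they were Tspan32 (0.106), Plaur (0.113), the urokinase receptor, and Atox1 (0.126), a copper chaperone. For Tapbpl they were Pebp1 (0.084), Cd47 (0.091), a surface protein that restrains phagocytosis, and Trim35 (0.101). The nearest profiles to B2m were Rdh11 (0.082), Tbrg1 (0.1) and Snrk (0.101), to Psmb8 Uck1 (0.082), Supt20 (0.084) and Sertad1 (0.104), and to Psmb9 Stx18 (0.079), Txndc12 (0.093) and Dguok (0.101). Erap1 lay nearest to Kars (0.05), a tRNA synthetase, then Rcbtb2 (0.061) and Cetn3 (0.064), Tapbp to Acaa2 (0.106), Gabarap (0.115) and Tax1bp1 (0.117), and Psmb10 to Apoo (0.091), Psmc3ip (0.099) and Stip1 (0.117). No other member was among the 3 nearest genes of a member.

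The partners of these genes in the pathway were counted with 1 probe set per gene, the brightest. By this count 0 of the 8 measured members rose and 0 fell between Pax5ko and EBFko (3.50% of 9334 genes rose and 3.64% fell), 0 rose and 2 fell from Pax5ko to RAG2ko (6.75% and 6.31%), and 0 rose and 2 fell from EBFko to RAG2ko (8.34% and 8.08%). Of 7 chaperones of peptide loading, among them Calr and Canx, which hold the folding heavy chain, 0 were called by limma in each comparison, and 1 had an unadjusted p under 0.05 in each. The list held 9, and Pdia3 and Pdia6 had no named probe set and were not measured. Calr differed by 0.26, -0.21 and 0.05 and Canx by 0.3, 0.06 and 0.36 in the order of comparisons above, and both were chosen for their role after their values were seen. Of 6 proteasome activators and assembly factors 0 were called by limma, with 1, 3 and 0 at an unadjusted p under 0.05. Among them Psme1 and Psme2 (also chosen by role), the subunits of the interferon-induced activator, differed by at most 0.37 in size. Of 6 cytosolic peptidases, Blmh alone was called: it rose by 0.64 from Pax5ko to RAG2ko (adjusted p = 0.0298 by limma) and by 0.56 from EBFko to RAG2ko (adjusted p = 0.0389).

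Of 24 regulators of class I genes, 0 rose and 3 fell from EBFko to Pax5ko, where 3.50% of all genes rose and 3.64% fell. The list held 25, and Nlrc5 had no named probe set and was not measured. From Pax5ko to RAG2ko 4 rose and 3 fell (6.75% and 6.31% of all genes), and from EBFko to RAG2ko 2 rose and 5 fell (8.34% and 8.08%). The other regulators did not pass, and the list medians were -0.04, -0.07 and -0.03, beside -0.02, 0.07 and 0.06 over all genes. Irf8, an interferon regulatory factor of B cells and myeloid cells, read 10.7, 10.57 and 11.47 in EBFko, 9.21, 9.27 and 9.3 in Pax5ko and 11.26, 11.25 and 11.25 in RAG2ko. It fell by 1.65 from EBFko to Pax5ko and rose by 1.99 from Pax5ko to RAG2ko (adjusted p = 0.0103 and 0.00296 by limma), with Pax5ko lowest, as for Psmb8. Ifngr1, the ligand-binding chain of the interferon gamma receptor, stood at 10.98 ± 0.42, 11.31 ± 0.06 and 9.57 ± 0.26 (SD, n = 3) in EBFko, Pax5ko and RAG2ko and fell by 1.74 from Pax5ko to RAG2ko and by 1.4 from EBFko to RAG2ko (adjusted p = 0.00548 and 0.0103). Ifnar2, a chain of the type I interferon receptor, fell by 1.02 and 1.83 in the same comparisons (adjusted p = 0.00818 and 0.000544). Nfkb1 fell by 0.97 from EBFko to Pax5ko (adjusted p = 0.0171), Rfxank rose by 1.15 from Pax5ko to RAG2ko (adjusted p = 0.0231), and Jak1 and Rfxap rose by 0.97 and 0.7 from EBFko to RAG2ko (adjusted p = 0.0058 and 0.018), by the same limma fit. Jak1 and Rfxap also rose from Pax5ko to RAG2ko (0.73 and 0.66), and these rises passed. Nfkb1 also fell by 0.66 from EBFko to RAG2ko and Ifnar2 by 0.81 from EBFko to Pax5ko, and both passed. RFXAP and RFXANK are subunits of the RFX complex that binds MHC promoters, and JAK1 is a kinase of interferon and IL-7 receptors.

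Of 19 tested interferon-induced genes outside the pathway, 3 rose and 1 fell from EBFko to Pax5ko (3.50% and 3.64% of all genes), 2 rose and 0 fell from Pax5ko to RAG2ko (6.75% and 6.31%), and 5 rose and 2 fell from EBFko to RAG2ko (8.34% and 8.08%). The list medians were 0.12, -0.29 and -0.19, beside -0.02, 0.07 and 0.06 over all genes. Gbp3, a guanylate-binding protein, climbed through the 3 lines from 7.33 ± 0.2 in EBFko to 8.68 ± 0.16 in Pax5ko and 9.71 ± 0.07 in RAG2ko (SD, n = 3), and all 3 steps passed (adjusted p = 0.00521, 0.00905 and 0.000193 by limma). Gbp2 rose by 2.22 from EBFko to RAG2ko (adjusted p = 0.0181 by limma). Gbp7 rose by 1.09 from EBFko to Pax5ko and by 0.81 from Pax5ko to RAG2ko (adjusted p = 0.0194 and 0.0371). From EBFko to RAG2ko it rose by 1.9 (adjusted p = 0.00098). Trim30a rose by 1.73 from EBFko to Pax5ko and by 1.8 from EBFko to RAG2ko (adjusted p = 0.0212 and 0.00967). Mx1, an antiviral GTPase, went the other way, with a fall of 2.96 from EBFko to Pax5ko and 3.39 from EBFko to RAG2ko (adjusted p = 0.049 and 0.0165), both to a dim mean of 4.02 or 3.59. Ifih1, a sensor of double-stranded RNA, fell by 2.22 from EBFko to RAG2ko (adjusted p = 0.0404).

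The heavy chains that the loading genes serve were counted by probe set. Class I heavy chain genes are many, near-identical to each other and differ between mouse strains, so that the locus a probe set reads is uncertain, and probe sets are given here by their array description and ID. Of 39 probe sets described as class I heavy chains or relatives, 35 were tested. Of these, 8 rose and 0 fell from EBFko to Pax5ko (2.64% and 2.58% of all probe sets), 9 rose and 1 fell from Pax5ko to RAG2ko (4.98% and 4.94%), and 17 rose and 0 fell from EBFko to RAG2ko (6.41% and 6.23%). The list medians were 0.98, 0.48 and 1.3, and these probe sets share sequence and are not independent. Without the probe sets whose ID ends in _s_at, _x_at or _a_at, which can read several transcripts, 0, 4 and 4 were called, and this count was added after the data were seen. All 8 rises from EBFko to Pax5ko were of such probe sets, so that count did not test them. The calls from EBFko to Pax5ko were also fewer with the replicate number as a block (3), with only the 6 arrays compared (5), and without EBFko replicate 2 (5), Pax5ko replicate 1 (4), 2 (5) or 3 (4), and ranged from 0 to 11 over 19 alternatives.

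Within the 9 tested probe sets described as D region locus 1, the difference between RAG2ko and EBFko ranged from 0.46 to 9.65. Probe set 1425614_x_at read 2.95, 5.13 and 1.91 in EBFko, 4.43, 4.15 and 6.07 in Pax5ko and 12.85, 12.86 and 13.23 in RAG2ko. Its deposited signals were 3 to 65 in EBFko and Pax5ko and 8138 to 9868 in RAG2ko, so the size of the fitted difference rests on dim values. It rose by 8.1 from Pax5ko (SE 0.84, adjusted p = 0.00169 by limma) and by 9.65 from EBFko (adjusted p = 0.000567). Probe set 1427651_x_at, with the same description, rose by 7.84 and 9.42 (adjusted p = 0.0019 and 0.000641), from deposited signals of 6 to 53 in EBFko and Pax5ko, which are dim as well. Against them, 1425545_x_at of the same description was bright in all 3 lines, at 12.85 ± 0.39 in EBFko, 14.11 ± 0.09 in Pax5ko and 13.8 ± 0.25 in RAG2ko (SD, n = 3), and was chosen after its values were seen. Probe sets of a single described locus thus differed in whether EBFko and Pax5ko gave a bright or a dim signal, and the strain or haplotype behind them was not tested.

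In the other loci, 1424948_x_at (K region) read 9.46, 9.26 and 8.67 in EBFko, 11.88, 12.09 and 11.56 in Pax5ko and 11.67, 11.68 and 12.43 in RAG2ko, and rose by 2.71 from EBFko to Pax5ko (adjusted p = 0.00356 by limma). Probe set 1449875_s_at (T region locus 10) rose by 1.99 in that comparison (adjusted p = 0.00648). A probe set of T region locus 23 (1419658_at) was the only heavy chain probe set that fell from Pax5ko to RAG2ko, by 3.21, from 8.56 ± 0.16 to 5.36 ± 0.92 (SD, n = 3, adjusted p = 0.0212), with deposited signals of 24 to 69 in RAG2ko. The brighter probe set of this locus (1449556_at) read 11.08, 10.78 and 11.32 in EBFko, 10.95, 10.53 and 10.93 in Pax5ko and 9.64, 9.69 and 10.65 in RAG2ko. Its values overlapped between RAG2ko and Pax5ko and the difference of -0.81 did not pass (adjusted p = 0.154 by limma), nor did -1.06 from EBFko to RAG2ko (adjusted p = 0.0679). The locus encodes Qa-1, which presents leader peptides of other class I molecules in a manner that needs the peptide transporter.

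**Figure D4:**
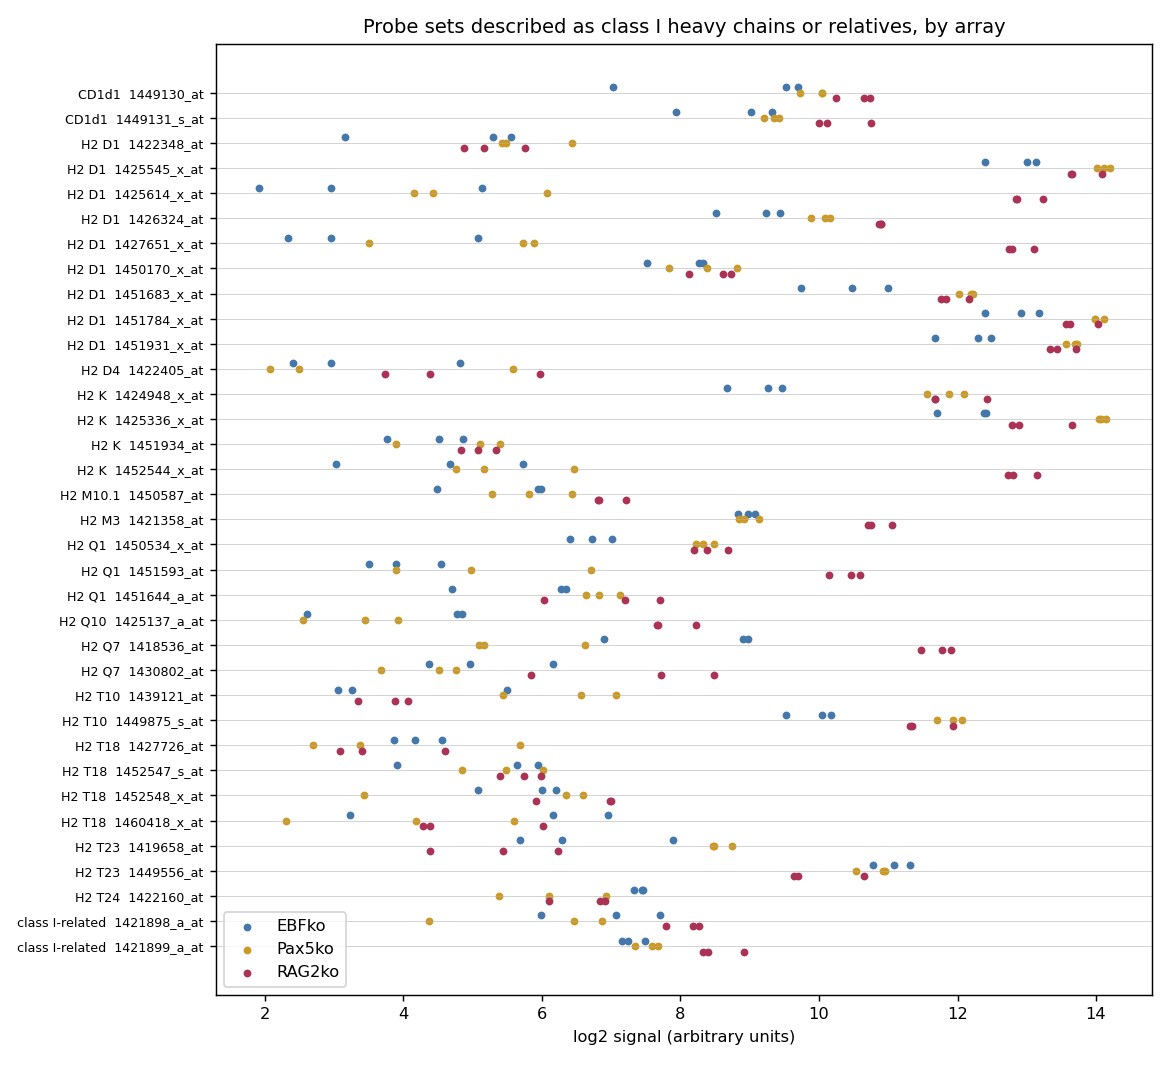
Log2 signal (arbitrary units) of the 35 tested probe sets described as class I heavy chains or relatives, 3 arrays per line, with the described locus and probe set ID at the left. Several probe sets, such as 1425614_x_at and 1427651_x_at, are bright in RAG2ko alone, while 1425545_x_at, described as the same locus, is bright in all lines.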

How the data were processed

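The matrix held a deposited signal intensity for each of 45101 probe sets on each of 9 arrays. GCRMA is named in the submitters' processing notes, but the deposited intensities are linear, with a trimmed mean of about 500.003 on each array, and the step that made them is not given in the sources used here. The authors' deposited tables of each line hold 1 linear ratio per probe set against a reference not given in the sources used here, without replicates, and served as an alternative source of values. Here, 64 control probe sets were left out, intensities were log2 transformed and quantile normalized, and the 3 comparisons were fitted together with limma 3.58.1 (R 4.3.3; lmFit, eBayes, two-sided, Benjamini-Hochberg adjustment over 40928 probe sets). Probe sets were named through RefSeq accession (13125), a shared description (4963) or 32 full names matched by hand (63 probe sets), and 26886 had no symbol. With 3 arrays per line, precision also depends on each probe set's brightness and spread, and standard errors of member differences ran from 0.13 to 1.3. Other genes were named by a fixed rule: per list and comparison, up to 2 rises and 2 falls of the largest size among called genes (brightest probe set) whose lines did not overlap; exceptions are named in the text. The members and lists were chosen with earlier results of these data known. Alternatives covered normalization, filters, the probe set used, the variance model, array weights, the replicate number as a block, and each array left out.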

Additional observations from a re-analysis of the deposited data

How the results depend on the processing

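The falls of Tap2 (1453913_a_at) in RAG2ko kept their call in all 20 alternatives that tested them, at -1.08 to -1.43 against Pax5ko and -1.07 to -1.49 against EBFko, and those of Tapbpl (1451544_at) in 20 of 21, the exception being the averaging of its probe sets. Over the 16 probe sets and 3 comparisons, 949 of 996 alternative values kept their call with no change beyond the replicate spread in sign or, for the untested ratios, in size. Of the others, 14 lost a call (12 of them for 1416016_at), 11 gained one, 22 moved by more than that spread, and 0 called values reversed. Among the 22 were the untested ratios for the called falls in RAG2ko, which were larger than in the main fit. Against Pax5ko and EBFko they gave -1.68 and -1.77 for Tap2 1453913_a_at and -1.08 and -1.37 for Tapbpl 1451544_at. The main fit called only 1, 2 and 2 member probe sets in the 3 comparisons, so most of the 996 values had no call to lose. The 1 member call between Pax5ko and EBFko became 0 without quantile normalization, with each array centred on its median, with the brightest probe set per gene, with probe sets averaged, without _s_at, _x_at and _a_at probe sets, with the replicate block, with only the 6 arrays compared, and, in a choice added after the data were seen, without the 2 Psmb9 probe sets of conflicting terms. It became 2 with signals below 64 raised to 64 and 3 with a trended and robust variance model, and 0 to 1 with an array left out. The 2 member calls between RAG2ko and Pax5ko became 1 with averaged probe sets, 1 without _s_at, _x_at and _a_at probe sets and 4 with the trended and robust model, and stayed at 2 with any array left out. The 2 between RAG2ko and EBFko became 1 under each of the first of these choices (1 averaged, 1 without the suffixed probe sets) and 2 to 3 with an array left out. Without the suffixed probe sets Tap2 1453913_a_at was not tested, so its absence there was fixed in advance. With each array centred on its median, B2m was 0.69 higher in RAG2ko than in EBFko and passed (adjusted p = 0.0416 by limma). The count of class I heavy chain calls ranged over 19 alternatives from 0 to 11 between Pax5ko and EBFko, 4 to 14 between RAG2ko and Pax5ko and 4 to 20 between RAG2ko and EBFko.

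Over all probe sets, calls between Pax5ko and EBFko were 3264 with the filter at log2 6, 995 with the brightest probe set, 825 averaged, 1294 without the suffixed probe sets, 3447 with signals raised to 64, 3817 with the trended and robust model, 3397 with array weights, 1222 with the replicate block and 987 to 2477 with an array left out. Between RAG2ko and Pax5ko they were 1674 with the brightest, 1450 averaged, 2513 without the suffixed probe sets, 6272 with the trended and robust model, 2641 with only the 6 arrays and 2424 to 4451 with an array left out. Between RAG2ko and EBFko they were 2046, 1754, 3257 and 3171 under the brightest, averaged, unsuffixed and 6-array choices, and 3097 to 5920 with an array left out. The choices with fewer probe sets test fewer features, and for the others the cause was not tested. Deviations from the line means were correlated between arrays of different lines. Same-numbered arrays gave -0.00618 to 0.114 over 9 pairs, and others -0.119 to 0.0706 over 18. All same-numbered pairs of replicates 2 and of replicates 3 were positive (0.039 to 0.114). All pairs of a replicate 2 with a replicate 3 were negative (-0.119 to -0.0324). Whether replicate numbers mark a shared step was not tested. With 3 arrays per line, differences well below 1 log2 unit often had intervals that reach 0.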
